A study of Homo sapiens with 12 samples.

Results

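Described here are 10 genes of the ATF4 amino acid and stress response in cells of an oral squamous cell carcinoma: ATF4, DDIT3, ATF3, TRIB3, CHAC1, SESN2, DDIT4, ASNS, PSAT1 and PHGDH. They were taken by name from the gene count table, as a list of known members of the response with no threshold on a measured value. The choice was made with earlier results of these data known. All 10 passed the filter on low counts and are among the 17532 genes tested. The cells were SCC-15, a line long grown in culture from a human tongue tumour of that kind, and their RNA was sequenced in bulk. Controls expressed a hairpin with no intended target (NC). The other 3 groups expressed shRNA1, shRNA2 or shRNA3, each aimed at FMOD, the gene of the matrix proteoglycan fibromodulin. Each of the 4 groups had 3 libraries, 12 in all, from cells taken after 48 hours, and the groups differed by label in the hairpin alone. The labels name no vector, clone, passage or batch, and they do not say whether the 3 libraries of a group came from separate cultures, so p-values measure only the spread between these libraries, which may be technical.

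ATF4 is the main effector of the integrated stress response. The kinases PERK, GCN2, PKR and HRI phosphorylate the initiation factor eIF2 when cells face unfolded protein in the endoplasmic reticulum, lack of amino acids, double-stranded RNA or lack of heme. General translation then falls while translation of the ATF4 mRNA rises, so ATF4 protein can change without its mRNA. ATF4 pairs with other basic leucine zipper (bZIP) proteins and binds the C/EBP-ATF response element, through which it drives genes of amino acid uptake and synthesis, tRNA charging, redox balance and cell death. Solid tumours use this programme under nutrient stress, and serine synthesis and asparagine synthesis are among its best-known outputs. RNA sequencing reads transcript levels only, and in bulk samples fewer cells of a type and less RNA per cell cannot be told apart.

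The core of the response element, TGATGNAA, was searched on both strands in the RefSeq windows (GRCh38.p14) from 250 bases before to 50 bases after each gene's start. All 10 genes had a window there, and 3 of the 10, ASNS, CHAC1 and ATF3, held the core, against 4.47% of 27167 genes. No window of the 10 held the cyclic AMP response element TGACGTCA, which 2.23% of all genes held. The sites below are shown because the results turn on these genes. The other 5 are the genes named from the pathway lists further on whose windows held the core: AARS1, BCAT1, JDP2 and CEBPG, which fell with every shRNA, and MTHFD1L, which rose. Each site is printed 5′ to 3′ on the gene's own strand, with the core or its reverse complement in capitals. Positions are from a start whose window held the core, and ASNS, ATF3, BCAT1, JDP2 and CEBPG also had windows of other starts without it.
ASNS (chr7:97872458-97872487, minus strand, core 68 to 61 bases before the start): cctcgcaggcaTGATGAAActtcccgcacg
CHAC1 (chr15:40953251-40953280, plus strand, core on the other strand, 209 to 202 bases before the start): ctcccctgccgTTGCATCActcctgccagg
ATF3 (chr1:212565176-212565263, plus strand, core 191 to 184 bases before the start): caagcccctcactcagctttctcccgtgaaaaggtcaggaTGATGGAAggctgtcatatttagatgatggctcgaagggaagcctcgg
AARS1 (chr16:70289675-70289704, minus strand, core on the other strand, 187 to 180 bases before the start): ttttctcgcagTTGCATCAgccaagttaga
BCAT1 (chr12:24949131-24949160, minus strand, core 48 to 41 bases before the start): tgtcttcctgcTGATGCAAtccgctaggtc
JDP2 (chr14:75427966-75428021, plus strand, core 16 to 9 bases before the start): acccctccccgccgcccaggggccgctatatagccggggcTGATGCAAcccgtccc
CEBPG (chr19:33374031-33374112, plus strand, core 42 to 35 bases before the start): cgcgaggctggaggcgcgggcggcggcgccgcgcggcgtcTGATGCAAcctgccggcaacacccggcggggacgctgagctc
MTHFD1L (chr6:150866346-150866375, plus strand, core 129 to 122 bases before 1 of its 3 annotated starts): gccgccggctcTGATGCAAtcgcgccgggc
The starts counted for MTHFD1L are those whose window held the core, and a further window (chr6:151006758-151007057) held none. From another of the counted starts the same core lies 25 to 32 bases after the start. A match is a description of letters in these windows and says nothing of binding in these cells. Among the lists described further on, 7 of 10 tRNA synthetase genes usually counted as ATF4 targets with a window held the core, as did 0 of 6 other cytosolic tRNA synthetase genes and 1 of 19 genes of endoplasmic reticulum chaperones. It was held by 4 of 8 amino acid transporters, 3 of 7 amino acid and one-carbon enzymes and 2 of 6 bZIP factors. In the eIF2 list 1 of 15 held it, and 0 of 8 p53 targets did. Each of the lists of other stress outputs, mTORC1 brakes and paralogues had 1 of 7.

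Some facts of the libraries bear on every value. Totals were 17286934 to 19567192 counts per library. FMOD, the target, had 2, 2 and 3 counts in the NC libraries and 0 in all 9 shRNA libraries, too few to check the labels. The NC libraries stood apart from all others: log2(CPM + 0.5) correlated at 0.992 among them and at 0.815 to 0.840 with shRNA libraries, and 157 genes with at least 1 CPM in every NC library had no count in the 9 shRNA libraries, with 58 the other way round. A difference between the NC culture and the shRNA cultures that did not come from the hairpin cannot be told apart from one that did. Within shRNA3, library 3 correlated at 0.914 to 0.918 with libraries 1 and 2 of its own group but at 0.978 to 0.986 with the shRNA1 and shRNA2 libraries, so shRNA3 is given below with and without it. Of 8 squamous epithelial markers, 8 had counts in every group, with a summed level of 1869 to 2067 CPM in NC and of 1281 to 2190 CPM over the shRNA groups, but single markers went both ways. KRT5, a basal keratin, averaged 1009 ± 42.4 CPM in NC, 21.4 ± 6.71 for shRNA1, 80.2 ± 2.47 for shRNA2 and 74.9 ± 22 for shRNA3 (SD, n = 3), and KRT14, its usual partner, 7.58 ± 1.74, 55.5 ± 2.96, 24.5 ± 0.511 and 149 ± 109 CPM. KRT6A and KRT17 also had higher means with every shRNA, and PKP1 and TP63 lower ones. Markers of other epithelium summed to 1897 to 2013 CPM in NC and to 3578 to 5461 CPM with the shRNAs, and they too went both ways. CDH1 had 6118 to 6650 counts in NC and 685 to 1071 with the shRNAs, while KRT19 had 12 to 20 and 4956 to 17334. KRT8 and KRT18 counts were also higher in every shRNA library, and those of EPCAM lay on both sides of NC. The fibroblast list summed to 56.7 to 59.6 CPM in NC, with DCN at 0, and to 15.5 to 86.6 CPM with the shRNAs, where LUM was at 0 for shRNA1 and shRNA3 and COL1A2, COL3A1 and DCN for shRNA2. Immune markers summed to 53.9 to 72.3 CPM in NC, with PTPRC at 0, and to 44.1 to 236 CPM with the shRNAs, and endothelial markers to 17.6 to 23.1 and 3.88 to 13.3 CPM. The immune sum was nearly all CD68, as PTPRC, CD3E and LYZ had at most 9 counts in any library. Of the endothelial markers, PECAM1 had 2 to 4 counts in NC and 42 to 195 with the shRNAs, while CDH5 had 312 to 406 and 7 to 55. VWF also had fewer counts with the shRNAs. The part of these differences in the results was not tested.

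Expression is given in CPM, read counts relative to library size scaled by the TMM method, and a gene is called higher or lower where its Benjamini-Hochberg adjusted p from edgeR's quasi-likelihood test was under 0.05 over all 17532 genes. Against NC, shRNA1 called 26.8% of all genes higher and 30.6% lower, shRNA2 24.6% and 28.4%, and shRNA3 26.4% and 27.6%. Of the 10 genes, 2 were higher and 6 lower with shRNA1, 2 higher and 7 lower with shRNA2, and 1 higher and 1 lower with shRNA3. The shares lower with shRNA1 and shRNA2 thus lay above the background and those with shRNA3 below it. The shRNA1 count of 8 became 5 without NC library 1 or 2, where 21.9% of all genes were higher and 26.4% or 26.3% lower. The median log2 fold change of the 10 genes was −0.73, −1.06 and −0.13, beside −0.02, −0.05 and −0.03 over all tested genes. All 3 comparisons use the same NC libraries. Called in 1 direction with all 3 shRNAs were DDIT4, higher, where the background was 16% of genes, and ASNS, lower, where it was 19.7%. Scaled by library totals only, the median of all genes moved to −0.35 for shRNA3 and its split of 4622 higher and 4835 lower genes became 3214 and 5945; of the 10 genes, 1 was then higher and 3 lower.

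**Figure D1:**
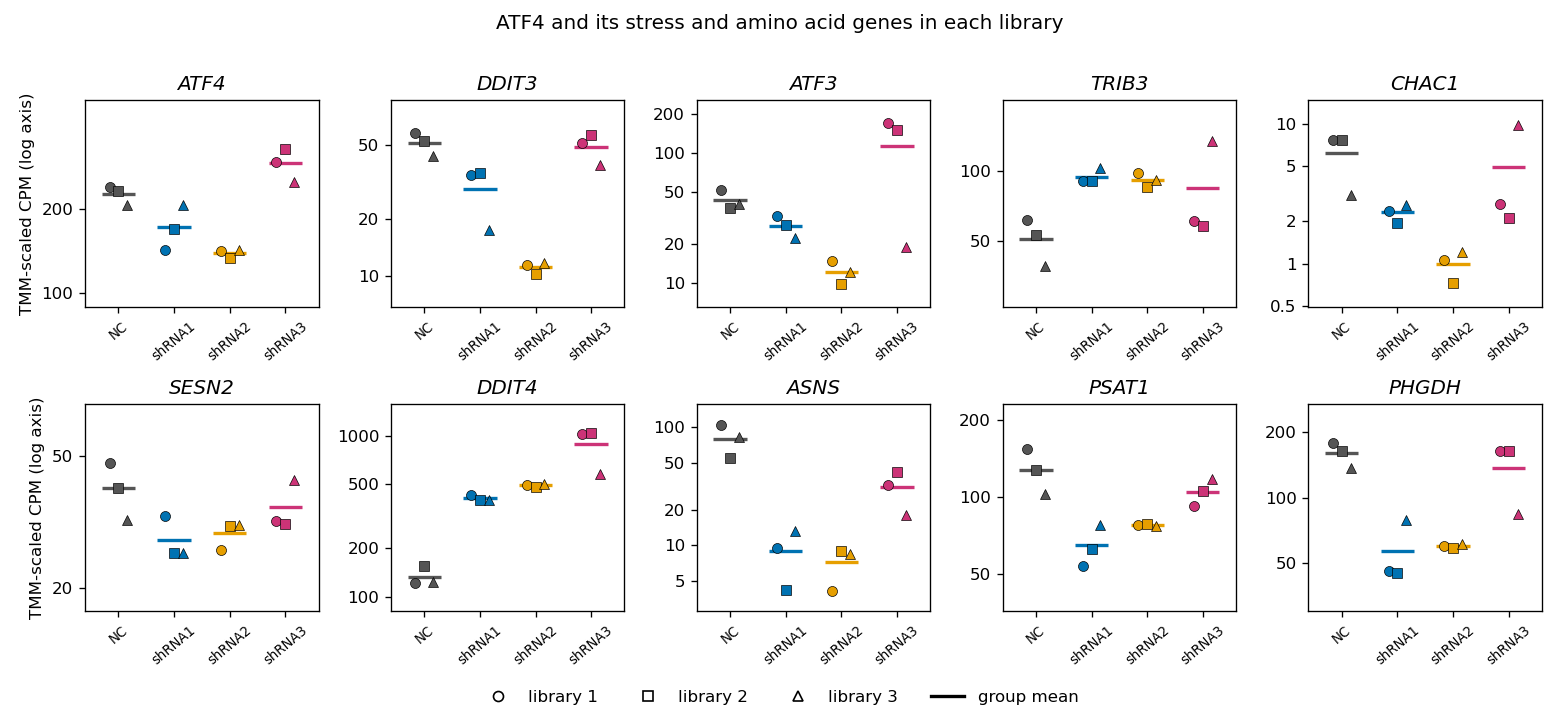
TMM-scaled CPM of each gene in each of the 12 libraries on a log axis, 1 panel per gene, with circles, squares and triangles for libraries 1, 2 and 3 of a group and a bar at the group mean. All 9 shRNA libraries lie above NC for DDIT4 (398 CPM or more) and below it for ASNS (42 CPM or less), while shRNA3 library 3 lies apart from libraries 1 and 2 for ATF3, TRIB3 and CHAC1.

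The transcription factors come first. ATF4 (ENSG00000128272, chr22:39519695-39522685, plus strand, GRCh38 in GENCODE release 29) had 239.6, 232 and 207 CPM in the NC libraries. With shRNA1 it had 142, 169 and 206 CPM, with shRNA2 142, 133 and 143 CPM, and with shRNA3 297, 330.4 and 250.5 CPM. Libraries with shRNA1 and shRNA2 therefore all lay below NC, by little in shRNA1 library 3, and those with shRNA3 all above. The place of shRNA3 holds under TMM scaling, with factors of 0.771, 0.795 and 1.06 for shRNA3 and 1.10 to 1.11 for NC. Unscaled ATF4 counts overlapped, at 4005, 4533 and 5043 with shRNA3 and 4746, 4706 and 4083 in NC. ATF4 mRNA was lower with shRNA2, at a log2 fold change of −0.70 ± 0.16 (SE, n = 3 against 3; edgeR adjusted p = 0.00287). It did not pass with shRNA1 (−0.39, edgeR adjusted p = 0.0505) or with shRNA3 (0.37, edgeR adjusted p = 0.0641). Both passed without shRNA3 library 3, shRNA1 at edgeR adjusted p = 0.00809 and shRNA3 at 0.47 with edgeR adjusted p = 0.00437. Without shRNA1 library 3, ATF4 passed with shRNA1 at −0.53 (edgeR adjusted p = 0.0130). It also passed there with library totals only (edgeR adjusted p = 0.0123), DESeq2 size factors (0.0401), a mean of at least 50 counts (0.0213) or only the 2 groups (0.0321). The DESeq2 Wald test gave an adjusted p of 0.0214 with shRNA1 and 0.0479 with shRNA3. The shRNA3 value passed without shRNA1 library 1 (edgeR adjusted p = 0.0476) or 3 (0.0359). Neither passed with the replicate block or no filter.

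DDIT3 (ENSG00000175197, chr12:57516588-57521737, minus strand) encodes CHOP, a bZIP factor of prolonged endoplasmic reticulum stress. Its NC libraries had 57.5, 52.1 and 43.7 CPM and its shRNA3 libraries 50.9, 56.3 and 38.9 CPM, which overlap. Expression was 34.5, 35.3 and 17.7 CPM with shRNA1 and 11.4, 10.3 and 11.8 CPM with shRNA2, so these 3 groups did not overlap. DDIT3 fell 4.58-fold with shRNA2 (log2 −2.19 ± 0.26 SE, edgeR adjusted p = 3.45e-05) and 1.75-fold with shRNA1 (log2 −0.81 ± 0.25 SE, edgeR adjusted p = 0.0155, or 0.0588 without NC library 1). With shRNA3 the difference was −0.07, with a 95% interval of −0.64 to 0.50 (edgeR adjusted p = 0.831). The gene overlaps MARS, a tRNA synthetase gene, and MBD6 on the opposite strand, and MIR616 and the protein-coding AC022506.1 on its own strand. Reads of these genes may be mixed, and whether counting used strand is not given in the sources used here. MARS1, as the gene is now named, averaged 176 ± 29.3 CPM in NC, 120 ± 11.8 CPM for shRNA1, 152 ± 6.11 CPM for shRNA2 and 182 ± 21.6 CPM for shRNA3 (SD, n = 3).

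ATF3 (ENSG00000162772, chr1:212565334-212620777, plus strand) is a stress-induced bZIP factor that other stress and growth signals also switch on. NC libraries held 51.9, 37.7 and 40.4 CPM, shRNA1 libraries 32.7, 28.2 and 22.2 CPM and shRNA2 libraries 14.7, 9.81 and 12.1 CPM. In shRNA3, libraries 1 and 2 held 170.5 and 151 CPM and library 3 held 19 CPM, so the first 2 lay above every other library and the third below NC and shRNA1 but above shRNA2. ATF3 fell with shRNA2 (log2 −1.83 ± 0.58 SE, edgeR adjusted p = 0.0191) and did not pass with shRNA1 (−0.64, edgeR adjusted p = 0.342) or shRNA3 (1.39, edgeR adjusted p = 0.0549). The wide spread of shRNA3 enters the shared error of all 3 tests. Without shRNA3 library 3, ATF3 was lower with shRNA1 (−0.64, edgeR adjusted p = 0.00322) and higher with shRNA3 (1.89, edgeR adjusted p = 3.51e-07). From shRNA3 library 3 alone the sign turned, to −1.16 (edgeR adjusted p = 0.00250). The shRNA2 call was lost without NC library 1 (edgeR adjusted p = 0.0559), shRNA2 library 2 (0.0682) or shRNA2 library 3 (0.0594).

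**Figure D2:**
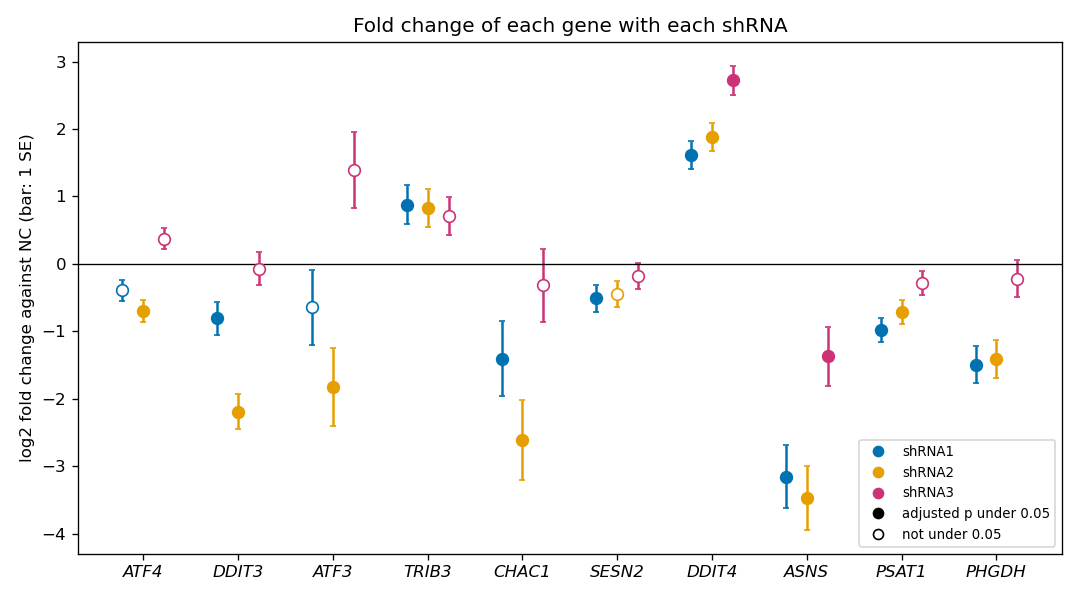
Log2 fold change of each gene against NC for shRNA1, shRNA2 and shRNA3, with bars of 1 SE; filled points had an edgeR adjusted p under 0.05. ASNS is lowest with shRNA1 and shRNA2 (−3.16 and −3.47), DDIT4 is highest with all 3 shRNAs (1.61, 1.88 and 2.72), and the shRNA3 point lies above the other 2 for ATF4, DDIT3, ATF3, CHAC1, SESN2, DDIT4, ASNS, PSAT1 and PHGDH.

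Next are the effectors of the stress branch. DDIT4 (ENSG00000168209, chr10:72273920-72276036, plus strand) encodes REDD1, which restrains mTORC1 and also responds to hypoxia, glucocorticoids and p53. Its level was 122, 155 and 123 CPM in NC, 427, 398 and 399 CPM with shRNA1, 492, 482 and 501 CPM with shRNA2, and 1025, 1042 and 574 CPM with shRNA3. No group overlapped another. DDIT4 rose 3.05-fold with shRNA1, 3.68-fold with shRNA2 and 6.59-fold with shRNA3 (log2 1.61 ± 0.21, 1.88 ± 0.21 and 2.72 ± 0.22 SE; edgeR adjusted p = 7e-05, 2.52e-05 and 2.45e-06). None of the 3 calls was lost in any of the 12 fits that left out 1 library. From shRNA3 libraries 1 and 2 the change was 2.95 and from library 3 alone 2.13, both past the threshold. An antisense gene, DDIT4-AS1, overlaps DDIT4 on the other strand, so its reads may be included.

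TRIB3 (ENSG00000101255, chr20:362835-397559, plus strand) encodes a pseudokinase that ATF4 and CHOP induce and that in turn restrains ATF4. It was the other gene called higher. NC libraries had 61.4, 53.2 and 39.3 CPM, against 90.2, 90.5 and 102 CPM with shRNA1 and 97.3, 84.7 and 90.7 CPM with shRNA2. Both groups lay above NC, with log2 fold changes of 0.88 ± 0.29 and 0.82 ± 0.29 (SE; edgeR adjusted p = 0.0210 and 0.0296). With shRNA3, libraries 1 and 2 had 60.8 and 58 CPM, within the NC range, and library 3 had 133 CPM. Over the 3 libraries shRNA3 did not pass (0.71, edgeR adjusted p = 0.0533). Library 3 alone gave 1.40 (edgeR adjusted p = 2.11e-05) and libraries 1 and 2 gave 0.21, which did not pass. The TRIB3 calls are not firm: scaled by library totals only they were lost (edgeR adjusted p = 0.0917 with shRNA1 and 0.143 with shRNA2), as they were in 3 of 12 fits without 1 library for shRNA1 (without NC library 2, NC library 3 or shRNA1 library 3) and in 5 of 12 for shRNA2 (without NC library 2 or 3 or any shRNA2 library), with edgeR adjusted p up to 0.0882 and 0.117.

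CHAC1 (ENSG00000128965, chr15:40952962-40956519, plus strand) encodes an enzyme that degrades glutathione. It was the least abundant of the 10 genes. NC libraries had 7.67, 7.68 and 3.09 CPM, shRNA1 libraries 2.39, 1.94 and 2.63 CPM, shRNA2 libraries 1.05, 0.733 and 1.22 CPM and shRNA3 libraries 2.67, 2.11 and 9.83 CPM. Counts behind these values ran from 13 to 198 per library. All shRNA1 and shRNA2 libraries lay below NC, and shRNA3 library 3 lay above every other library. CHAC1 fell 6.10-fold with shRNA2 (log2 −2.61 ± 0.59 SE, edgeR adjusted p = 0.00313) and 2.65-fold with shRNA1 (log2 −1.41 ± 0.55 SE, edgeR adjusted p = 0.0477). The shRNA1 call was lost in 8 of 12 fits without 1 library (NC library 1 or 2 or any shRNA1 or shRNA2 library; edgeR adjusted p up to 0.136). Without shRNA3 library 3, CHAC1 was lower with shRNA3 as well (−1.37, edgeR adjusted p = 0.00513).

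SESN2 (ENSG00000130766, chr1:28259527-28282491, plus strand) encodes a leucine sensor that restrains mTORC1 and is shared with p53 and NRF2. NC libraries had 47.7, 39.9 and 32 CPM, shRNA1 libraries 32.9, 25.4 and 25.4 CPM, shRNA2 libraries 25.9, 30.8 and 30.9 CPM and shRNA3 libraries 31.9, 31 and 42.2 CPM. Changes were small and NC overlapped shRNA1 and shRNA3. SESN2 was called lower with shRNA1 (−0.51 ± 0.19 SE, edgeR adjusted p = 0.0399) and not with shRNA2 (−0.45, edgeR adjusted p = 0.0708) or shRNA3 (−0.19, edgeR adjusted p = 0.439). The shRNA1 call was lost in 7 of 12 fits without 1 library (NC library 1 or 2, shRNA1 library 2 or 3, or any shRNA2 library; edgeR adjusted p up to 0.180). The shRNA2 value passed without NC library 3 (edgeR adjusted p = 0.0394) or shRNA3 library 3 (0.0157).

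The 3 biosynthetic enzymes fell together with shRNA1 and shRNA2. ASNS (ENSG00000070669, chr7:97852118-97872542, minus strand) encodes asparagine synthetase, which makes asparagine from aspartate and glutamine. NC libraries had 104, 54.3 and 81.6 CPM. With shRNA1 it had 9.6, 4.21 and 13.1 CPM, with shRNA2 4.16, 8.91 and 8.53 CPM, and with shRNA3 32.6, 42 and 18.1 CPM, so every shRNA library lay below every NC library and every shRNA3 library above those of the other 2 shRNAs. ASNS fell 8.91-fold with shRNA1 (log2 −3.16 ± 0.47 SE, edgeR adjusted p = 0.000178), 11.1-fold with shRNA2 (−3.47 ± 0.48, edgeR adjusted p = 0.000110) and 2.59-fold with shRNA3 (−1.37 ± 0.44, edgeR adjusted p = 0.0203). These were the largest falls among the 10 genes in each comparison. The shRNA3 call was lost without NC library 1 (edgeR adjusted p = 0.0782) or shRNA3 library 1 (0.0512), and library 3 alone gave −2.12 (edgeR adjusted p = 0.0175), over 1.5 times the value from all 3 libraries. ASNS overlaps a noncoding gene on its own strand and a pseudogene on the other, whose reads may be mixed with it, and 4 pseudogenes each named after ASNS, ATF4 and PSAT1 summed to at most 5 counts per library.

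PHGDH (ENSG00000092621, chr1:119648411-119744226, plus strand) catalyses the first step of serine synthesis and PSAT1 (ENSG00000135069, chr9:78297143-78330093, plus strand) the step after it. PHGDH had 179, 164 and 136 CPM in NC, 45.9, 45 and 78.9 CPM with shRNA1, 60.2, 58.7 and 61.3 CPM with shRNA2, and 164, 164 and 84.1 CPM with shRNA3. It fell 2.82-fold with shRNA1 and 2.66-fold with shRNA2 (log2 −1.50 ± 0.28 and −1.41 ± 0.28 SE; edgeR adjusted p = 0.000748 and 0.00117). In shRNA3, libraries 1 and 2 were at the NC level under TMM scaling (0.03) and library 3 lay between NC and the other shRNAs (−0.90). Unscaled PHGDH counts of libraries 1 and 2, 2211 and 2249, lay below the 2685 to 3549 of NC. PSAT1 had 154, 128 and 103 CPM in NC, 53.7, 62.9 and 77.7 CPM with shRNA1, 77.6, 78.5 and 77.4 CPM with shRNA2, and 92, 105 and 118 CPM with shRNA3. It fell 1.98-fold with shRNA1 and 1.64-fold with shRNA2 (log2 −0.98 ± 0.18 and −0.72 ± 0.18 SE; edgeR adjusted p = 0.000668 and 0.00511). With shRNA3 neither passed (PHGDH −0.22, 95% interval −0.84 to 0.40; PSAT1 −0.28, 95% interval −0.69 to 0.12). Scaled by library totals only, both were called lower with shRNA3 (PHGDH −0.61, edgeR adjusted p = 0.0370, and PSAT1 −0.60, edgeR adjusted p = 0.0423). No fit without 1 library lost any of the 4 PHGDH and PSAT1 calls with shRNA1 and shRNA2 or those of ASNS with the same shRNAs.

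To compare the genes with each other, CPM were divided by the summed length of each gene's annotated exons (RPKM). That length counts the exons of every annotated transcript, whether or not these cells use it, so the order depends on the annotation. It was 9217 bases for PHGDH and 4455 for ASNS, beside 2058 for DDIT4 and 2188 for PSAT1. In NC the mean CPM of PHGDH was above those of DDIT4 and PSAT1, and its RPKM was below theirs. In NC the order was ATF4 at 90 ± 6.74, DDIT4 at 64.9 ± 9.16, PSAT1 at 58.5 ± 11.7, DDIT3 at 39.1 ± 5.31, ASNS at 18 ± 5.58, PHGDH at 17.3 ± 2.36, TRIB3 at 14.9 ± 3.26, SESN2 at 11.5 ± 2.28, ATF3 at 10.7 ± 1.86 and CHAC1 at 2.99 ± 1.29 RPKM (SD, n = 3). DDIT4 and PSAT1 lay within their spread of each other, as did each neighbouring pair from ASNS to ATF3. DDIT4 came first in all 3 shRNA groups, at 198 ± 7.96, 239 ± 4.85 and 428 ± 129 RPKM, with ATF4 second at 68.6 ± 12.9, 55.4 ± 2.18 and 116 ± 16 RPKM. ASNS dropped from place 5 in NC to place 9 in each shRNA group, above CHAC1 alone, at 2.01 ± 1.01, 1.62 ± 0.593 and 6.94 ± 2.7 RPKM.

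The shRNAs were then compared with each other, 10 genes in 3 pairs, with p-values adjusted over all tested genes. Between shRNA1 and shRNA2, where 5.78% of all genes were higher and 6.53% lower in shRNA1, 1 of the 10 differed. DDIT3 was 2.61-fold higher with shRNA1 (log2 1.38 ± 0.25 SE, edgeR adjusted p = 0.00778), a call kept in all 12 fits without 1 library. For TRIB3, SESN2 and PHGDH the 95% intervals of the difference ran from −0.60 to 0.70, from −0.51 to 0.38 and from −0.71 to 0.54. The ASNS interval was −0.72 to 1.35, so a 2-fold difference is not excluded by it. Without shRNA3 library 3, 20.5% of all genes were higher and 19.2% lower in shRNA1 than in shRNA2, and 5 of the 10 passed: DDIT3, ATF3 (1.18, edgeR adjusted p = 0.000176), CHAC1 (1.20, 0.0188), ATF4 (0.31, 0.0483) and DDIT4 (−0.27, 0.0281).

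Against shRNA3, 7 of the 10 genes were lower with shRNA1, where the background was 11.9% higher and 18.1% lower. They were ATF4 (log2 −0.76), DDIT3 (−0.74), ATF3 (−2.03), DDIT4 (−1.11), ASNS (−1.78), PSAT1 (−0.70) and PHGDH (−1.28), with edgeR adjusted p from 0.00620 to 0.0435. Also 7 were lower with shRNA2 than with shRNA3, where the background was 1.91% higher and 6.43% lower. These were ATF4 (−1.07), DDIT3 (−2.13), ATF3 (−3.22), CHAC1 (−2.29), DDIT4 (−0.84), ASNS (−2.10) and PHGDH (−1.19), with edgeR adjusted p from 0.0134 to 0.0431. None of the 10 was higher in either comparison. ATF4, DDIT4 and PHGDH kept their calls between shRNA1 and shRNA3 in all 12 fits without 1 library. The ASNS call there was lost without shRNA1 library 1 or 2 or shRNA3 library 2, the PSAT1 call without shRNA1 library 1 or 2, the ATF3 call without any shRNA1 library or shRNA3 library 1 or 2, and the DDIT3 call without any library but shRNA3 library 3. None of the 7 calls between shRNA2 and shRNA3 was kept in all 12 fits. Without any 1 of the 3 shRNA2 libraries or shRNA3 library 2, no gene of the whole table was called in that comparison, and without shRNA3 library 1 5 were higher and 14 lower, 1 of the 10 among them. The members called were 2 without any 1 of the NC libraries, where at most 0.182% of all genes were lower, and 3 and 4 without shRNA1 library 1 and 2, where 1.79% and 0.696% were lower. At unadjusted p under 0.05 in edgeR, 7 of the 10 genes passed in each fit without a shRNA2 library and 8 without shRNA3 library 2. The share of all genes at that threshold is not given here, so these counts have no background to be read against. On all libraries the DESeq2 Wald test called 7, where 6.50% of all genes were higher and 15.9% lower.

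shRNA3 has to be read by library. In libraries 1 and 2, 7 of the 10 genes lay above all 6 libraries of shRNA1 and shRNA2, TRIB3 lay below them, and CHAC1 and SESN2 lay within or across their range. In library 3, 9 of the 10 lay above all 6 and ATF3 lay within. The share of all tested genes placed in these ways was not computed, so these counts have no background to be read against. The level in libraries 1 and 2 was 8.48 times that in library 3 for ATF3, 2.06 times for ASNS, 1.95 times for PHGDH and 1.80 times for DDIT4. Library 3 in turn had 4.11 times the CHAC1 and 2.24 times the TRIB3 of libraries 1 and 2. With libraries 1 and 2 alone, where 32.3% of all genes were higher and 40.7% lower than in NC, 5 of the 10 differed: ATF4, ATF3 and DDIT4 were higher and CHAC1 and ASNS lower (ASNS −1.10, edgeR adjusted p = 0.0433). With library 3 alone, taken to vary like the other groups, 28.1% of all genes were higher and 28.8% lower, and also 5 of the 10 differed: TRIB3 and DDIT4 were higher, and ATF3, ASNS and PHGDH were lower. DDIT4 and ASNS were thus called from either set of libraries, and ATF3 was called in opposite directions. Both counts of 5 lay below the share of all genes called in the same fit. From library 3 alone, 3 of the 10 differed from shRNA1, where 3.22% of all genes were higher and 4.88% lower, and 3 from shRNA2, where 0.571% were higher and 0.707% lower.

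**Figure D3:**
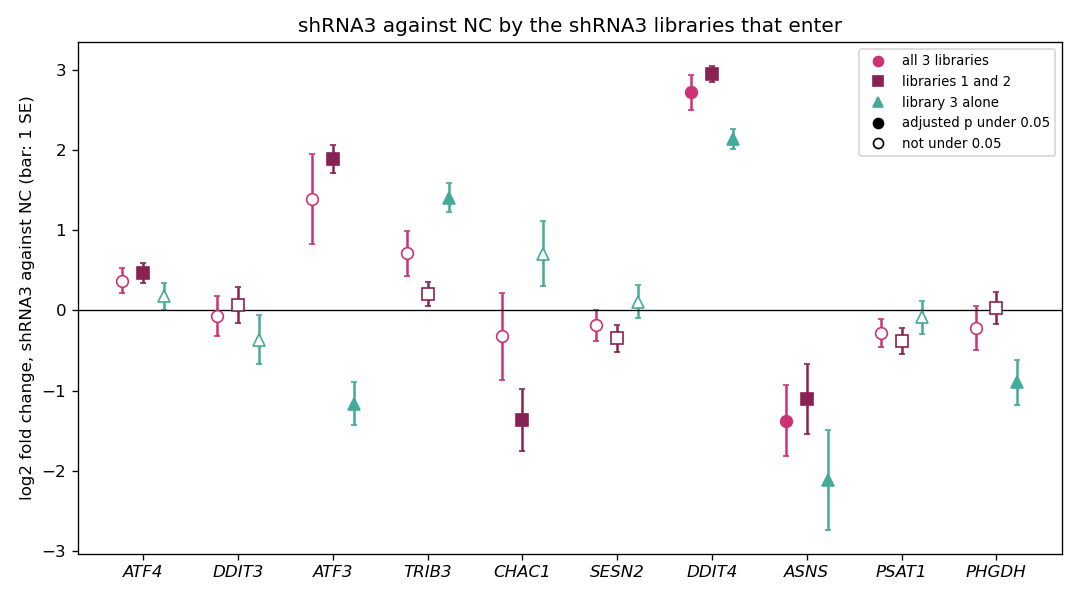
Log2 fold change of each gene with shRNA3 against NC, from all 3 shRNA3 libraries, from libraries 1 and 2, and from library 3 alone, with bars of 1 SE and filled points where the edgeR adjusted p was under 0.05. ATF3 runs from 1.89 with libraries 1 and 2 to −1.16 with library 3, whereas DDIT4 stays between 2.13 and 2.95 and ASNS between −2.12 and −1.10.

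The upstream machinery and the other known outputs were read from 11 lists of 117 genes, 115 of them tested. Over these, 26 were higher and 41 lower with shRNA1, 26 and 45 with shRNA2, and 35 and 34 with shRNA3, against the shares of all genes given above. Without shRNA3 library 3 the counts were 41 and 49, 38 and 52, and 39 and 49, while the shares of all genes rose to 35.4% and 37.7%, 33.4% and 36.8%, and 32.3% and 40.7%. Of 18 eIF2 kinases, eIF2 factors and phosphatase subunits, 4 were higher and 4 lower with shRNA1, 4 and 5 with shRNA2 and 6 and 5 with shRNA3. EIF2AK3, the gene of PERK, fell from an NC level of 32.5 ± 1.61 CPM to 20.1 ± 2.32, 18.7 ± 0.996 and 18.5 ± 1.27 CPM (log2 −0.69, −0.80 and −0.82), and IMPACT, an inhibitor of GCN2 activation, fell by more (log2 −2.04, −1.12 and −1.66). GCN1, the ribosome-bound activator of GCN2, rose from 190.2 ± 13.3 CPM to 282 ± 30.7, 346 ± 1.9 and 334 ± 27 CPM (SD, n = 3), and EIF2S3, the gamma subunit of eIF2, rose as well (log2 0.72, 1.10 and 1.37). Its shRNA3 counts without shRNA3 library 3 were 6 higher and 10 lower, in a fit that called 40.7% of all genes lower.

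Among 8 bZIP partners and related factors, 1 was higher and 3 lower with shRNA1, 2 and 3 with shRNA2 and 4 and 3 with shRNA3. JDP2, a bZIP repressor related to ATF3, fell from 40.8 ± 9.01 CPM to 5.72 ± 0.992, 3.09 ± 0.533 and 12.4 ± 3.12 CPM (log2 −2.84, −3.72 and −1.72; edgeR adjusted p = 6.66e-06, 1.46e-06 and 0.000187). CEBPG, a dimer partner of ATF4, fell by 0.90, 0.87 and 0.62 on the log2 scale. From shRNA3 library 3 alone the CEBPG value was −0.25 and did not pass (edgeR adjusted p = 0.155). ATF2 fell by 0.90, 0.93 and 0.58, the last lost without NC library 3 (edgeR adjusted p = 0.0662) or shRNA3 library 2 (0.0718), and −0.92 from shRNA3 library 3 alone. ATF5, a stress factor translated like ATF4, rose from 7.15 ± 1.45 CPM to 33.7 ± 10, 28.8 ± 3.66 and 22.6 ± 13.4 CPM (log2 2.24, 2.01 and 1.66), the last being 1.05 without shRNA3 library 3.

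Amino acid enzymes and transporters moved in both directions. Of 12 enzymes of amino acid and one-carbon metabolism, 3 were higher and 7 lower with shRNA1, 3 and 8 with shRNA2 and 4 and 5 with shRNA3. ALDH1L2, a mitochondrial folate enzyme, fell from 26.3 ± 5.77 CPM to 0.414 ± 0.103, 0.151 ± 0.117 and 0.437 ± 0.312 CPM (edgeR adjusted p = 2.49e-06, 1.36e-06 and 3.33e-06). CBS, which condenses serine with homocysteine, fell from 30.6 ± 2.57 CPM to 1.31 ± 0.569, 1.39 ± 0.916 and 6.19 ± 4.36 CPM. BCAT1, a branched-chain aminotransferase, fell by 1.74, 1.74 and 1.89 on the log2 scale. From shRNA3 library 3 alone, CBS was at −4.48 (−2.32 from all 3 libraries) and BCAT1 at −2.88. MTHFD1L, another mitochondrial folate enzyme, went the other way, from 39.4 ± 1.99 to 126 ± 15, 142 ± 0.916 and 142 ± 6.67 CPM (log2 1.67, 1.85 and 1.85).

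Of 9 amino acid transporters, 2 were higher and 4 lower with shRNA1, 3 and 1 with shRNA2 and 3 and 3 with shRNA3. SLC7A11, the cystine importer, rose from 15.5 ± 1.95 CPM to 169 ± 16.6, 108 ± 5.28 and 48.6 ± 36 CPM (log2 3.45, 2.81 and 1.66; edgeR adjusted p = 3.39e-05, 0.000133 and 0.00358). The shRNA3 value was 0.85 without library 3 and 2.57 from library 3 alone. SLC38A2, an importer of small neutral amino acids, rose from 213 ± 12.1 CPM to 782 ± 114, 522 ± 35.9 and 804 ± 110.0 CPM. SLC43A1, a transporter of large neutral amino acids, was at 4.59, 3.4 and 2.84 CPM in NC. With shRNA1 its counts were 1, 0 and 0, at least 24.1-fold lower against a floor of 3 counts per library, and it fell with shRNA2 and shRNA3 too (0.265 ± 0.117 and 0.215 ± 0.188 CPM).

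The tRNA synthetase genes formed 2 lists. Of 12 usually counted as ATF4 targets, 1 was higher and 5 lower with shRNA1, 2 and 3 with shRNA2 and 3 and 4 with shRNA3. AARS1, for alanine, fell from NC values of 599, 489.7 and 407 CPM to 95.9, 92.5 and 146 CPM with shRNA1, 179, 178 and 183 CPM with shRNA2 and 257, 252 and 199 CPM with shRNA3 (log2 −2.16, −1.47 and −1.08; edgeR adjusted p = 7.88e-06, 0.000114 and 0.000916). SARS1, for serine, fell by 0.41, 0.79 and 0.36 on the log2 scale. Its shRNA1 call was lost without NC library 1 (edgeR adjusted p = 0.0807) or shRNA1 library 3 (0.0525), and its shRNA3 call in 8 of 12 fits (NC library 1 or 2, shRNA1 library 2, any shRNA2 library, shRNA3 library 1 or 2; up to 0.139). Of 8 other cytosolic synthetase genes, 4, 4 and 2 were higher and 0 lower. VARS1, for valine, rose by 0.75, 1.51 and 1.19 and QARS1, for glutamine, by 0.64, 1.13 and 1.59 on the log2 scale, the last being 0.88 from shRNA3 library 3 alone. Once shRNA3 library 3 was left out, 3 of these 8 were lower with shRNA3, near the 40.7% of all genes. QARS1 did not pass with shRNA1 without any 1 of the NC libraries or shRNA1 library 1 (edgeR adjusted p up to 0.0877).

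Endoplasmic reticulum chaperones and the ATF6 and XBP1 arms of the unfolded protein response, were 19 genes. Of these, 3 were higher and 8 lower with shRNA1, 1 and 14 with shRNA2, and 3 and 4 with shRNA3. From shRNA3 libraries 1 and 2 the counts were 6 higher and 5 lower, and from library 3 alone 3 higher and 10 lower, beside 32.3% and 40.7%, and 28.1% and 28.8%, of all genes. The list's median log2 fold change was −0.68, −0.86 and −0.15, the last being 0.06 without shRNA3 library 3 and −0.86 with library 3 alone. Scaled by library totals only, 2 were higher and 9 lower with shRNA3. CALR, a calcium-binding chaperone, fell from 1361 ± 38 CPM to 536 ± 65.4, 541 ± 14.8 and 757 ± 244 CPM (shRNA3 log2 −0.85, or −1.49 from library 3 alone). SEL1L and SYVN1, which form the ubiquitin ligase complex of endoplasmic reticulum-associated degradation, fell with each shRNA (SEL1L log2 −1.63, −1.86 and −2.62; SYVN1 −1.27, −1.54 and −1.30). EDEM1, which marks misfolded glycoproteins for the same route, rose from 45.9 ± 4.62 CPM to 111 ± 7.63, 122 ± 7.2 and 119 ± 26 CPM.

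**Figure D4:**
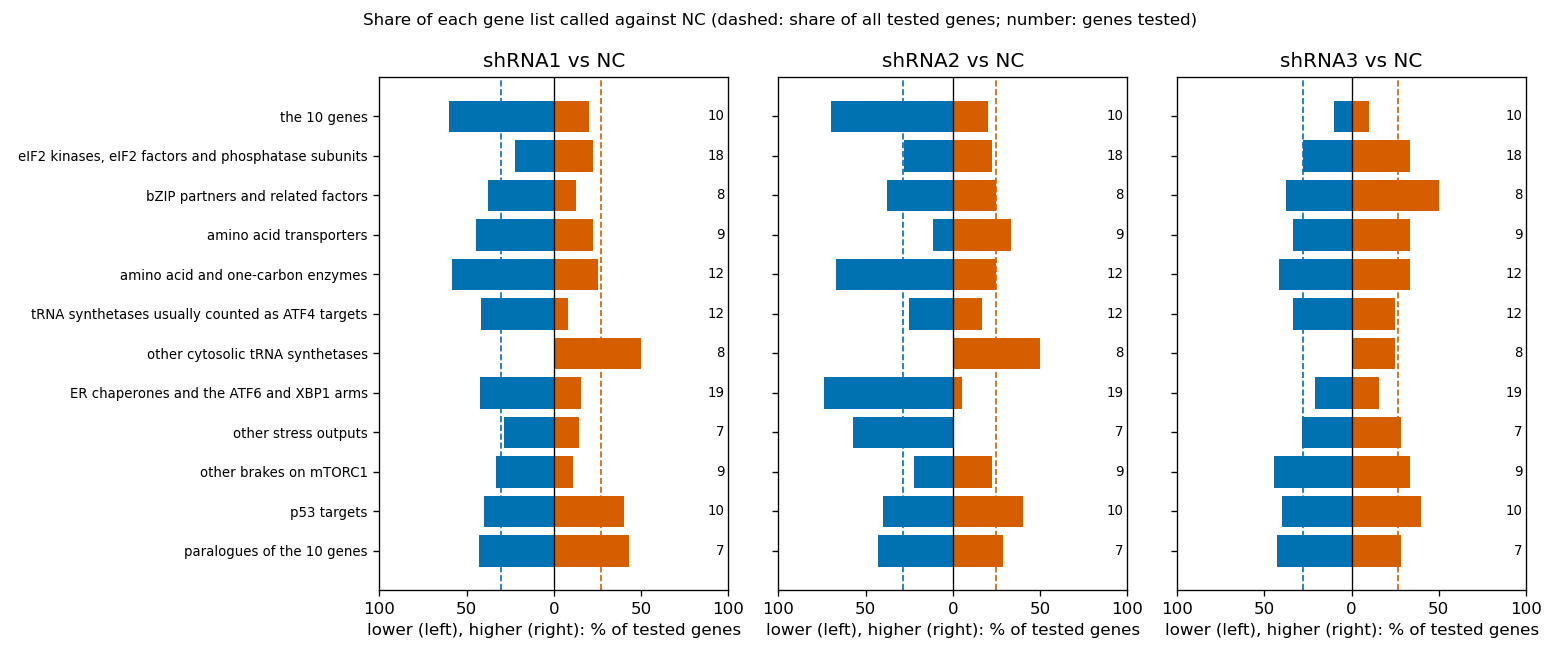
Share of each gene list called lower (left) and higher (right) against NC, in percent of its tested genes, whose number stands at the right of each panel, with dashed lines at the share of all tested genes. Of the 10 genes, 60% and 70% are lower with shRNA1 and shRNA2 and 10% with shRNA3; of the 19 chaperone and unfolded protein response genes, 14 are lower with shRNA2 and 4 with shRNA3.

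DDIT4 and SESN2 brake mTORC1, and 10 further genes with that role were read. Of the 9 tested, 1 was higher and 3 lower with shRNA1, 2 and 2 with shRNA2 and 3 and 4 with shRNA3. SESN3, a paralogue of SESN2, fell from 48.7 ± 1.03 CPM to 0.378 ± 0.239, 0.321 ± 0.0583 and 1.88 ± 0.962 CPM (log2 −6.97, −7.21 and −4.72; edgeR adjusted p = 1.15e-06, 1.06e-06 and 6.78e-06). CASTOR1, an arginine sensor, fell from 10.9 ± 0.367 CPM to 0.715 ± 0.2, 2.23 ± 0.112 and 2.67 ± 0.91 CPM. EIF4EBP1, a repressor of cap-dependent translation and an ATF4 target, rose by 0.52, 0.78 and 1.28 on the log2 scale (0.81 from shRNA3 library 3 alone), though with shRNA1 not without any 1 of the NC libraries or shRNA1 library 3 (edgeR adjusted p up to 0.0714). So DDIT4 rose and SESN3 and CASTOR1 fell in the same shRNA libraries.

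Of 8 paralogues of the 10 genes, 7 were tested, with 3 higher and 3 lower for shRNA1, 2 and 3 for shRNA2 and 2 and 3 for shRNA3; JDP2, ATF5 and SESN3 among them are given above. TRIB1, a relative of TRIB3, rose from 10.1 ± 0.381 CPM to 50 ± 10.1, 36.5 ± 0.797 and 106 ± 45.4 CPM (log2 2.31, 1.85 and 3.38). TRIB2 fell slightly with shRNA1 and shRNA2 (−0.44 and −0.39, edgeR adjusted p = 0.0223 and 0.0417) and was 0.23 with shRNA3, and leaving out 1 library ended the first call in 4 of 12 fits (without NC library 2 or 3 or shRNA1 library 1 or 2; edgeR adjusted p up to 0.0815) and the second in 10 of 12 (up to 0.152). SESN1 had 16.9 ± 2.03 CPM in NC and 10.5 ± 1.78 CPM with shRNA3 (log2 −0.68, edgeR adjusted p = 0.0118), a call lost without shRNA3 library 1 (0.0553), 2 (0.0615) or both (−0.40, 0.133). CHAC2, the relative of CHAC1, was 1.87, 3.1 and 2.23 CPM in NC, 9.95, 13.5 and 10.8 CPM with shRNA1, 6.44, 6.88 and 5.43 CPM with shRNA2 and 0.222, 0.51 and 8.39 CPM with shRNA3. It was called higher with shRNA1 (2.24, edgeR adjusted p = 0.0453), where CHAC1 was lower, but that call was lost in 9 of 12 fits without 1 library (any NC, shRNA1 or shRNA2 library; edgeR adjusted p up to 0.129). DDIT4L had no count in any library.

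Stress outputs outside amino acid metabolism and p53 targets completed the lists. Of 8 other stress outputs, 7 were tested, with 1 higher and 2 lower for shRNA1, 0 and 4 for shRNA2 and 2 and 2 for shRNA3. VLDLR, a lipoprotein receptor, had 218, 243 and 199 counts in NC and between 0 and 4 in each shRNA library, at least 64.7-fold lower with shRNA2 and at least 56-fold lower with shRNA3 against 3 counts per library. KLHL24 fell from 72.1 ± 9.59 CPM to 14.1 ± 3.15, 15.3 ± 1.68 and 41.8 ± 17.4 CPM, the last lost in 8 of 12 fits without 1 library (NC library 1 or 3, shRNA1 library 1 or 2, any shRNA2 library or shRNA3 library 1; edgeR adjusted p up to 0.107), and −0.48 without shRNA3 library 3 against −1.69 from it alone. SESN2 and DDIT4 are also p53 targets, and of 10 other p53 targets 4 were higher and 4 lower with each shRNA. TP53INP1 fell by 3.80, 5.32 and 4.21 and FDXR by 2.01, 1.80 and 1.67 on the log2 scale, while AEN rose by 2.74, 1.83 and 2.03 and FAS, a death receptor, by 1.64, 1.43 and 1.44.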

How the data were processed

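The authors deposited 1 table of each gene's expected count in 12 libraries, not scaled, and 13.8% of its values were not whole. The submitters' processing notes name HISAT2, HTSeq 0.11.2 and GRCh38. Annotation, filters and the use of strand are not given in the sources used here. HTSeq gives whole counts, so how the fractions arose is not known. Counts were rounded, scaled by TMM (factors 0.771 to 1.11) and filtered with filterByExpr (minimum count 10, minimum total 15). They were tested two-sided with edgeR 4.0.16 (R 4.3.3, robust quasi-likelihood) in 1 model of the 4 groups over all 12 libraries, with Benjamini-Hochberg adjustment over 17532 genes and a threshold of 0.05. The SE is the log2 fold change over the square root of F, and 95% intervals use 8 residual degrees of freedom. A floor of 3 counts per library covers counting error only. Libraries of a group differed by more than sampling noise (chi-square per gene 3.61 or more). Groups and numbers came from the sample titles. Positions came from GENCODE release 29, matched by Ensembl ID, and promoter windows from RefSeq (GRCh38.p14), matched by symbol. The 10 genes and the lists were chosen with earlier results of these data known. Named are the 10 genes, all their paralogues, and of each list up to 4 genes called in 1 direction with all 3 shRNAs, without overlap with NC, by the largest smallest change. Alternatives included DESeq2 1.42.0, other scalings, filters and thresholds, a replicate block, and libraries left out.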

Additional observations from a re-analysis of the deposited data

Results flagged for a closer look

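ATF4 and ATF3 had opposite signs against NC with shRNA3 and with the other shRNAs, and the test between the shRNAs passed. The ATF4 sign with shRNA3 was read under TMM scaling, and its unscaled counts with shRNA3 overlapped those of NC. For ATF4 the difference of shRNA1 from shRNA3 was −0.76 and that of shRNA2 from shRNA3 was −1.07 on the log2 scale. For ATF3 the differences were −2.03 and −3.22. From shRNA3 library 3 alone, ATF4 differed from shRNA1 by −0.55 (edgeR adjusted p = 0.0552) and ATF3 by 0.53 (edgeR adjusted p = 0.235). ATF3 then differed from shRNA2 by −0.65 (edgeR adjusted p = 0.222), so both ATF3 calls rest on shRNA3 libraries 1 and 2.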

How the results depend on the processing

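Of the 10 genes, 8 were called with shRNA1, 9 with shRNA2, 2 with shRNA3 and 2 in 1 direction with all 3 shRNAs, and between the shRNAs 1 (shRNA1 and shRNA2), 7 (shRNA1 and shRNA3) and 7 (shRNA2 and shRNA3). In the same order, fits without 1 library gave 5 to 10, 7 to 10, 1 to 5, 1 to 3, 1 to 5, 3 to 8 and 0 to 8. An adjusted p under 0.01 gave 4 with shRNA1, where 19.3% of all genes were higher and 23.6% lower. It gave 1 with shRNA3 (19.7% and 20.8%), 1 with all 3 and 3 between shRNA1 and shRNA3 (1.82% and 5.30%). Between shRNA2 and shRNA3 it gave 0, where 2 of all genes were higher and 2 lower. In that pair 8 of the 10 had an unadjusted p under 0.05 in edgeR, a count with no share of all genes beside it. The DESeq2 Wald test called 7 there, beside 6.50% of all genes higher and 15.9% lower. A log2 change of at least 1 gave 4 with shRNA1, where 18.0% of all genes were higher and 24.1% lower. It gave 4 between shRNA1 and shRNA3, where 5.59% were higher and 11.4% lower. Library totals only gave 4 with shRNA3, where 18.3% of all genes were higher and 33.9% lower, and 4 with all 3 shRNAs. The DESeq2 Wald test gave 5 with shRNA3, where 28.3% of all genes were higher and 29.9% lower. No share of all genes called with all 3 shRNAs is given here for these settings. With only the libraries of the 2 groups compared, 4 passed between shRNA1 and shRNA2, where 20.6% of all genes were higher and 20.3% lower. In each pair with shRNA3 0 passed, and no gene of the table did. There 6 and 8 of the 10 had an unadjusted p under 0.05 in edgeR, again with no share of all genes beside them. Without shRNA3 libraries 1 and 2 the counts were 5 with shRNA3, 5 with all 3, and 4, 3 and 3 between the shRNAs. Signs that turned with a call before or after were ATF3 with shRNA3 against NC (−1.16) and ATF3 between shRNA1 and shRNA3 (0.53), both without shRNA3 libraries 1 and 2, and CHAC2 with shRNA3 against NC, which ranged from −2.69 without shRNA3 library 3 to 0.96 over fits without 1 library. The signs of other values that passed in neither fit also turned, as for DDIT3, CHAC1, PHGDH and SESN2 with shRNA3 against NC and TRIB3 between the shRNAs. The cause was not tested. Counts not rounded changed no call.

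The replicate block gave 3 between shRNA2 and shRNA3 (7 without it), losing CHAC1, DDIT4, ASNS and PHGDH. In that fit 0.570% of all genes were higher and 1.59% lower. The block also ended the SESN2 call with shRNA1 (edgeR adjusted p = 0.0619). Numbers in the titles are the only link between groups that the labels give. Same-numbered libraries did not deviate together from their group means (mean correlation −0.00856 over 18 pairs, 0 of them over 0.1). That does not show whether they shared handling, which the labels do not say.

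Depth limits CHAC1, CHAC2, SLC43A1 and VLDLR, whose counts were low in several libraries, and FMOD, whose loss cannot be checked here.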

Other observations

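Some stress genes of the lists shared the ATF3 order of the shRNA3 libraries. They were chosen after their values were seen, and the pattern was not tested. HSPA5, the chaperone BiP, had 3765 and 3786 CPM in shRNA3 libraries 1 and 2 and 509.8 CPM in library 3, beside 1687, 1390.2 and 1449.7 CPM in NC and 504 to 759 CPM over shRNA1 and shRNA2. PPP1R15A, which encodes the stress-induced subunit of the eIF2 phosphatase, had 714, 769.8 and 73.8 CPM in the shRNA3 libraries and 78.2 to 92.8 CPM in NC. NUPR1, a stress-response cofactor, had 24.8, 26.7 and 3.77 CPM there and 1.32 to 2.12 CPM in NC. GDF15, a secreted stress cytokine, had 788, 873 and 185 CPM there and 138 to 148 CPM in NC. BBC3, which encodes the death protein PUMA, had 156, 157 and 28.9 CPM there and 14.6 to 18.4 CPM in NC.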
